A study of Mus musculus with 38 samples.

Results

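Afp, Apoa1, Apob, Ttr, Apom, Rbp4, Apoe, Trf, Apoa4 and Apoc2 are 10 genes for proteins that the visceral endoderm of the early mouse embryo secretes into the surrounding fluid. They were taken by symbol, and 10 of 10 were found in each expression table: among 35976 genes in a table of 17 bulk RNA-seq libraries, 37108 genes in a table of 8 bulk libraries and 20695 genes in a table of single cells. The study reprogrammed E13.5 mouse embryonic fibroblasts, from crosses of OG2 and 129S4/SvJaeJ mice, with retroviral pMXs vectors. JGES stands for Jdp2, Glis1, Esrrb and Sall4, JGE leaves out Sall4, JGEO has Oct4 (O) in place of Sall4, and JGESO carries both. Cells grew in iCD3 medium, which holds LIF, bFGF, vitamin C, CHIR99021 and further small molecules, and the BMP4+ cells also received 10 ng/ml BMP4, until day 7 or an earlier day of collection. A further experiment delivered SALL4-WT or SALL4-delN12 alone, in iCD3 without BMP4. SALL4-delN12 lacks the N-terminal residues through which SALL4 binds the NuRD complex. Of the 38 samples, 23 were bulk RNA-seq, 2 single-cell RNA-seq, 9 ATAC-seq and 4 Cut&Tag, and each condition had 1 sample, with the replicates of Cut&Tag merged by the authors. No difference between conditions was therefore tested against replicates, and no p-value is given.

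The visceral endoderm forms from the primitive endoderm of the blastocyst, wraps the epiblast and feeds it before there is a placenta. Like the liver later on, it secretes plasma carriers (alpha-fetoprotein, transthyretin, retinol-binding protein, transferrin) and packs lipid into lipoproteins built on apolipoprotein B, to which the smaller apolipoproteins A-I, A-IV, C-II, E and M attach. The parietal endoderm, the other product of the primitive endoderm, mainly lays down basement membrane.

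The genes lie partly in clusters (GRCm38, GENCODE models). Apoa1 (chr9:46228580-46230466, + strand) and Apoa4 (chr9:46240696-46243459, +) start 12.1 kb apart, with Apoc3 between them. Apoe (chr7:19696109-19699188, −) and Apoc2 (chr7:19671579-19677941, −) start 21.2 kb apart, with Apoc1 and Apoc4 between them. Afp (chr5:90490737-90508907, +) starts 29.8 kb beyond Alb. Apob (chr12:7977648-8016835, +), Apom (chr17:35128997-35132050, −), Rbp4 (chr19:38116629-38125281, −) and Trf (chr9:103204001-103230444, −) stand apart from these clusters, as does Ttr. Apoc2 shares its strand and exons with the read-through model Gm44805, Trf overlaps the same-strand model Gm20425, and Afp and Apoa4 have antisense models across them (Gm43449, Gm10680), so that reads of these 4 could be split or shared in the authors' counting.

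RefSeq (GRCm38.p6) held promoter windows, from 250 bases before to 50 after the start, for 8 of the 10 genes and none was matched for Ttr and Trf. The following 5 are shown because 4 of them carry the letters of a FOXA motif and the fifth, Apoe, was the one with an open-chromatin peak over its first base. They run 5′ to 3′ along the gene's strand, and capitals mark the letters of any motif searched for, on either strand. These were TGTTTAC and the variant TGTTTGC for FOXA factors, AGATAA and the variant TGATAA for GATA factors, GTTAAT for HNF1 factors and TATAAA for the TATA box.
Afp chr5:90490464-90490763 (+): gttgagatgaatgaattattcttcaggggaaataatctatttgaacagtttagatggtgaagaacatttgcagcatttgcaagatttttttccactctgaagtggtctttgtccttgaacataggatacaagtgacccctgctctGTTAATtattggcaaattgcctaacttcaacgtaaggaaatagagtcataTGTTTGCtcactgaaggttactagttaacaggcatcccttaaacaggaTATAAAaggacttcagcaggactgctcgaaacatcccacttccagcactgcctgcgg
Apoa1 chr9:46228380-46228679 (+): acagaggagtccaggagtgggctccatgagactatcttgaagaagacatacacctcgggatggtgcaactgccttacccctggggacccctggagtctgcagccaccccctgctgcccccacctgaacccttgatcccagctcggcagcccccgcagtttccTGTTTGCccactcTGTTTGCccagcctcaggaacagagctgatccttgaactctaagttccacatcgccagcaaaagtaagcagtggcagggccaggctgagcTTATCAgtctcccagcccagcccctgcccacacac
Apob chr12:7977427-7977726 (+): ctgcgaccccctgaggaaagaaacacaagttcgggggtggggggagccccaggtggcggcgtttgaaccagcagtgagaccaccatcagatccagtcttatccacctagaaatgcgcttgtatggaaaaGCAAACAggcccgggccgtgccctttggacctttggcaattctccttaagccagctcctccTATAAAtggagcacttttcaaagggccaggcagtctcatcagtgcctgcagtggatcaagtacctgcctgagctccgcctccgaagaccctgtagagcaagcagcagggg
Rbp4 chr19:38125272-38125571 (−): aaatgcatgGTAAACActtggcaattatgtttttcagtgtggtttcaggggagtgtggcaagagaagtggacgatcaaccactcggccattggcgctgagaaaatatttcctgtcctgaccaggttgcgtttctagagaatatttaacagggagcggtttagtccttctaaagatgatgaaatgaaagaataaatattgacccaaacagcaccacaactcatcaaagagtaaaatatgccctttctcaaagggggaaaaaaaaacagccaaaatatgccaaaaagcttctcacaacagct
Apoe chr7:19699139-19699438 (−): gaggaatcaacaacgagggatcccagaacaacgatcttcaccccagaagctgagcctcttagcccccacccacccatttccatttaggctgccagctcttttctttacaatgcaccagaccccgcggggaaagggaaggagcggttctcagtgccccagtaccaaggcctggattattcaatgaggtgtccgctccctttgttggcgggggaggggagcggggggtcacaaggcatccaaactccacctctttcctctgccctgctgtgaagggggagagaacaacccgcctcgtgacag

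FOXA factors are among the regulators of serum protein genes in endoderm. Their letters were found in 4 of 8 windows (Afp, Apoa1, Apob, Rbp4), where 8.48% of 32851 promoters of this length held them. Counted from the start used for the window, their first base is at −55 in Afp, at −88 and −75 in Apoa1, at −121 in Apob and at −241 in Rbp4. They are on the opposite strand in Apob and Rbp4. The window's start lies 23, 50, 29 and 40 bases from the GENCODE start in Afp, Apoa1, Apob and Rbp4. In Apom and Apoa4 it lies 249 and 148 bases after the GENCODE start. Most of these 2 windows is thus inside the gene model, and their lack of letters says little about the stretch before it. GATA letters were in 2 windows (Apoa1, Apoc2; 18.6% of all), HNF1 letters in 2 (Afp, Apoc2; 7.1%) and TATA letters in 2 (Afp, Apob; 13.6%). Letters of the HNF4 motif, searched as paired half-sites and as one further form, were in 0 of 8 (0.539%). The windows of Afp and Rbp4 were poor in G and C (40.0% and 40.7%) beside a median of 52.7% over all promoters, and those of Apoa1, Apob and Apoe lay above it (59.3%, 56.7% and 57.7%).

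Single cells were given 5 types by the authors. The type labelled ParE in the deposited table can be read as parietal endoderm, while the paper writes of primitive endoderm cell-like cells. It had summed levels of 10 visceral endoderm markers of 2173 CPM (UMIs scaled to library size) against 109 in the other cells of the BMP4+ sample, with 10 of 10 markers more than 2-fold higher. Its 10 parietal endoderm markers summed to 4665 against 2135 CPM (6 higher, 2 lower), and its 6 primitive endoderm markers to 1221 against 92.0 CPM (6 higher). Of all genes, 9.53% were higher and 21.1% lower in ParE cells. Markers of all 3 endoderm types were thus raised, and the cells are called ParE here as deposited. Alb, Tat, Tdo2 and Cyp2e1 of the hepatocyte list had 0 UMIs in them. The samples held 11335 (BMP4+) and 8685 (BMP4−) cells with medians of 21205 and 12738 UMIs, and shared 2 barcodes (0.023% of the BMP4− cells). The day 7 JGES libraries stand in both bulk tables, with a median ratio of the second to the first copy of 0.975 (BMP4−) and 0.978 (BMP4+).

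In the JGES time course, the question was when and how far BMP4 raised these genes. Day 7 stood apart from the earlier days. A gene was counted as higher or lower where log2(FPKM+1) differed by at least 1, FPKM being fragments scaled to gene length and library size. By this measure 1, 2 and 1 of the 10 genes were higher with BMP4 at days 1, 3 and 5, where 3.75%, 6.81% and 8.78% of all genes tested were. At day 7, 8 of 10 were higher (10.3% of all genes) and 0 lower (13.8%), with a median difference of 2.09 against −0.14 over all genes. At the earlier days 1, 2 and 0 were lower (5.72%, 8.99% and 13.2%), with medians of 0.12, 0.03 and 0.06. Without Apoe, the members summed to 13.6, 15.9, 27.2 and 120 FPKM at days 1, 3, 5 and 7 with BMP4, and to 7.14, 12.9, 14.6 and 14.2 without. In bulk RNA, more cells of a type and more RNA per cell cannot be told apart.

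**Figure D1:**
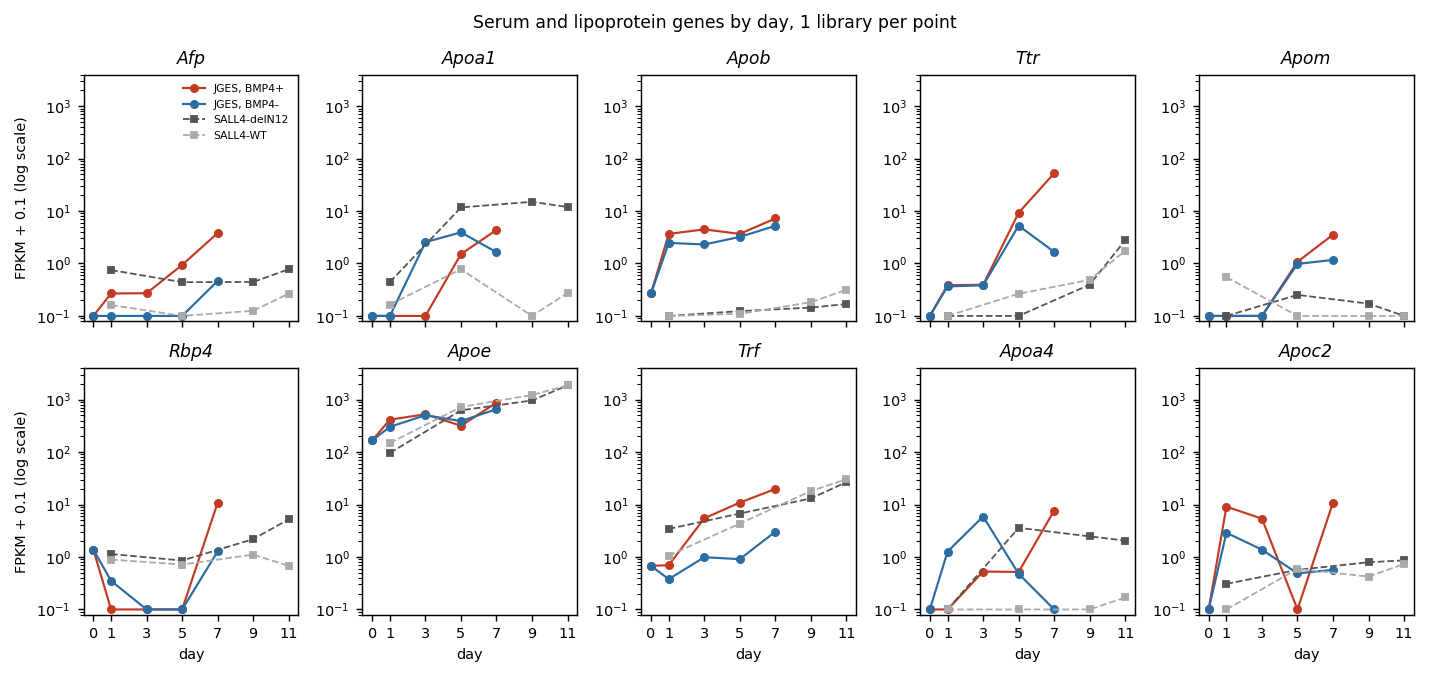
FPKM (plus 0.1, log axis) of each gene by day in JGES cells with BMP4 (red) and without (blue), and in cells with SALL4-WT (light dashed) or SALL4-delN12 (dark dashed) alone, 1 library per point; points at 0.1 are listed at 0. With BMP4, Ttr went from 9.16 at day 5 to 52.3 FPKM at day 7, while Apoe was at 167 FPKM or more in all JGES libraries.

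Among the plasma carriers, Ttr, which carries thyroid hormone and retinol-binding protein, had the largest difference at day 7. It was listed at 0 at day 0, stood at 0.266, 0.283, 5.16 and 1.56 FPKM without BMP4 at days 1, 3, 5 and 7, and at 0.286, 0.292, 9.16 and 52.3 with BMP4. The 2 courses lay together to day 3 and parted at day 7, by 4.38 on the log2(FPKM+1) scale. Rbp4, the retinol carrier that travels bound to transthyretin, was at 1.29 FPKM at day 0 and at 0 at days 1, 3 and 5 with BMP4, then at 10.8 at day 7. Without BMP4 it was at 0.25, 0, 0 and 1.18, so that its day 7 difference was 2.44. Rbp4 was the only member below its day 0 level by the fold limit in any JGES library (BMP4− days 3 and 5, BMP4+ days 1, 3 and 5). Of all genes, 9.28%, 10.5%, 10.0% and 10.4% were lower than at day 0 on days 1, 3, 5 and 7 without BMP4, and 9.05%, 9.98%, 9.85% and 9.47% with it.

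Trf, which encodes the iron carrier transferrin, differed with BMP4 from day 3 on. With BMP4 it was at 0.6, 5.36, 10.8 and 19.7 FPKM at days 1, 3, 5 and 7, and without at 0.279, 0.889, 0.81 and 2.94. Differences of 1.75, 2.7 and 2.39 at days 3, 5 and 7 made it the only member past the limit with BMP4 on each of these days. Afp, the albumin relative of fetal serum, was low throughout. It went from 0.168 and 0.171 at days 1 and 3 to 0.838 and 3.7 FPKM at days 5 and 7 with BMP4, and reached 0.365 at day 7 without, a difference of 1.78. Alb and Afm, its neighbours in the genome, were listed at 0 in all JGES libraries.

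The apolipoproteins split into a pair that changed little with BMP4 at day 7 and a group that changed more. Apob, the scaffold of the particle, was at 0.168 FPKM at day 0, at 2.37, 2.2, 3.11 and 5.11 without BMP4 and at 3.56, 4.37, 3.56 and 7.12 with it. Both courses rose above day 0 from the first day, and the day 7 difference between them was 0.41. Apoe, which many cell types make and which directs lipoproteins into cells, was at 167 FPKM at day 0. It was at 303, 505, 390 and 658 without BMP4 and at 415, 526, 318 and 875 with it, again a day 7 difference of 0.41. Apoe gave 88.0 to 99.2% of the members' summed FPKM in each library of the series, which is why sums are given without it.

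The exchangeable apolipoproteins of the other group were at low and uneven levels before day 7. Apoa4 was listed at 0 at day 7 without BMP4 and at 7.58 FPKM with it, but earlier it was higher without (1.17 against 0 at day 1 and 5.81 against 0.428 at day 3). Apoa1, the main protein of high-density lipoprotein, showed the same turn, at 2.45 against 0 FPKM at day 3 and 3.82 against 1.41 at day 5 without and with BMP4, then 1.54 against 4.26 at day 7 (1.05). Apom, which carries sphingosine 1-phosphate on lipoproteins, was at 0 in both courses at days 1 and 3, and at 1.07 without and 3.44 with BMP4 at day 7 (1.10). Apoc2, the activator of lipoprotein lipase, was at 9.03 and 5.27 FPKM with BMP4 at days 1 and 3, at 0 at day 5 and at 10.8 at day 7, and without BMP4 at 2.8, 1.28, 0.387 and 0.469. Its day 7 difference was 3.0, and its read-through model Gm44805 moved with it (0.577 against 12.8 FPKM at day 7 in the second table), a part in the result that was not tested.

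Against day 0, the members also separated by day. With BMP4, 3, 4, 4 and 10 of 10 were above day 0 at days 1, 3, 5 and 7 (9.78%, 13.7%, 14.9% and 17.5% of all genes), and without it 3, 5, 4 and 6 were (11.8%, 16.4%, 20.2% and 22.2%). At day 7 with BMP4 the smallest of the 10 differences from day 0 was 2.15 (Apom) and the largest 5.74 (Ttr). The comparisons with and without BMP4 share the day 0 library.

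Genes that handle lipid and take up serum proteins, and the wider set of endoderm secreted genes, were described by lists chosen beside the members. At day 7 in JGES, 4 of 12 lipoprotein assembly genes were higher with BMP4 (10.3% of all genes) and 0 lower (13.8%). These were Mttp, which loads lipid onto apolipoprotein B (2.34 to 7.79 FPKM), P4hb, its partner subunit (223 to 478), the triglyceride enzyme gene Dgat2 (2.03 to 11.7) and Pla2g12b (0 to 1.73). Of 12 receptor and uptake genes, 6 were higher and 0 lower, among them the endocytic receptor genes Lrp2 (4.26 to 15.9) and Cubn (13.7 to 29.1), Amn (12.3 to 42.3) and the adaptor gene Dab2 (9.82 to 72.6). Stra6, the receptor for retinol-binding protein, was at 45.1 without and 22.6 with BMP4, just inside the limit at −0.97.

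Of 20 other secreted genes, 3 were higher (Clu 46.8 to 2555, Igf2 470 to 1978, Spink1 2.71 to 24.1 FPKM) and 4 lower (Apoa2 4.88 to 1.5, Apoc1 18.6 to 3.17, Fgg 1.62 to 0, Vtn 3.28 to 0.402). Apoc1 lies between Apoe and Apoc2 in the genome and differed in the opposite direction from Apoc2. Of 12 regulators, 2 were higher (Hnf4a 0.81 to 4.03, Sox17 3.11 to 12.6) and 1 lower (Nr5a2 4.12 to 0). Of all genes, 10.3% were higher and 13.8% lower, so the secreted and regulator counts lie near those shares. The 10 visceral endoderm markers summed to 53.8 without and 212 FPKM with BMP4, and the parietal list to 688 and 1513. Hepatocyte markers summed to 2.61 and 2.96, and macrophage markers to 12.3 and 13.5, with Ptprc, C1qa, C1qb, C1qc and Fcer1g at 0 in both.

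The genes nearest in pattern to the members' mean profile over the 17 libraries, among 12343 candidates, were Spink1 (Pearson r 0.91), Igfbp1 (0.90), Lrp2 (0.89), Myo6 (0.87) and Rhox9 (0.87). The 17 libraries include the day 7 BMP4+ library in which most members peak, and genes and libraries are not independent, so these values are descriptions. Of the members themselves, Afp (0.87) and Ttr (0.84) lay nearest to the mean profile and Apob (0.46) farthest from it. Each member is part of that profile, which raises its r, while the candidate genes are not.

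Factor sets at day 7 compared the response to BMP4 with and without Sall4 and Oct4. With BMP4, 1 of 10 members was higher in JGE (4.28% of all genes) and 1 in JGEO (2.26%), Trf in both, against 8 in JGES (10.2%) and 4 in JGESO (Afp, Rbp4, Trf and Apoc2; 5.29%). In each set 0 were lower (4.78%, 1.95%, 13.7% and 3.52% of all genes in JGE, JGEO, JGES and JGESO). With a pseudocount of 0.1, JGE had 2 higher and 2 lower and JGEO 5 higher, so these 2 counts depend on how values near 0 are weighted. The medians were 0.16, 0.40, 2.08 and 0.97 for JGE, JGEO, JGES and JGESO. Summed FPKM without Apoe were 14.3 without and 33.9 with BMP4 in JGE, 8.64 and 25.5 in JGEO, 13.9 and 117 in JGES, and 54.2 and 166 in JGESO.

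**Figure D2:**
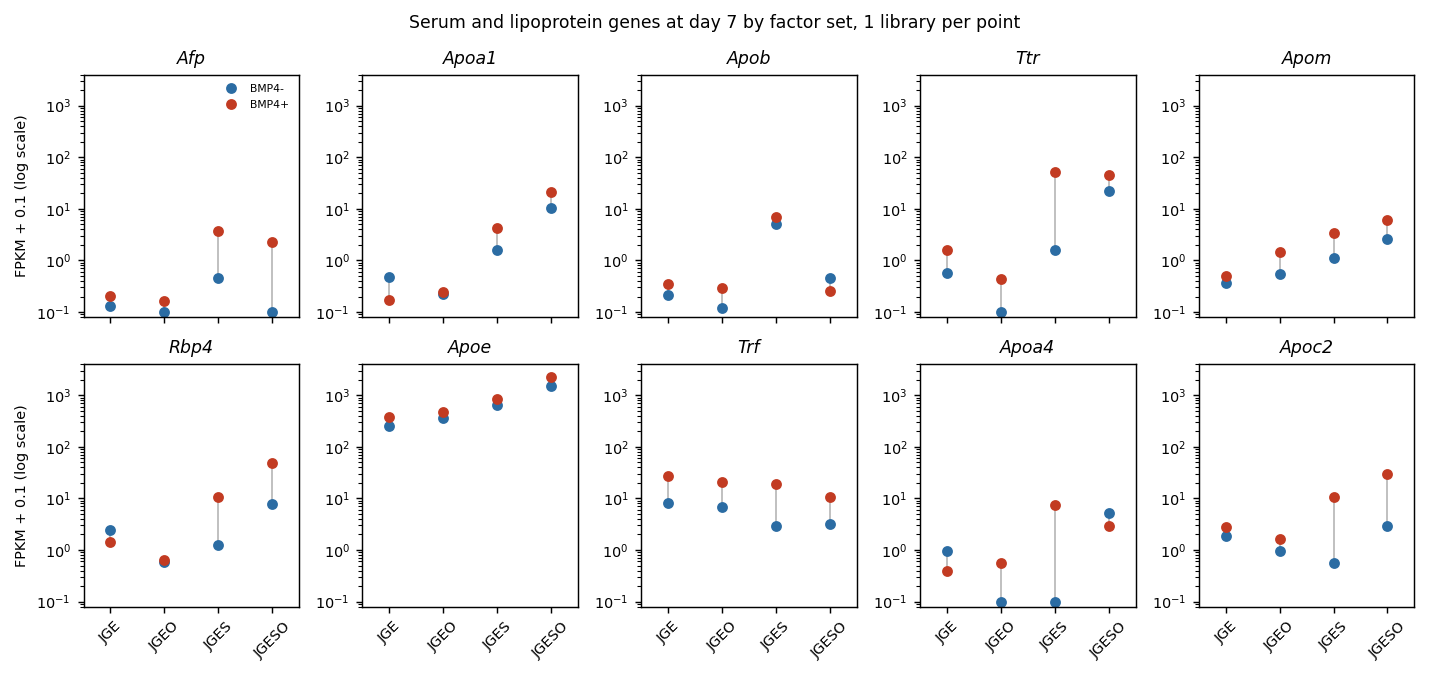
FPKM (plus 0.1, log axis) of each gene at day 7 in JGE, JGEO, JGES and JGESO cells without BMP4 (blue) and with it (red), 1 library per point. Ttr stood at 51.1 and 44.6 FPKM in JGES and JGESO with BMP4, and at 1.49 or less in the 4 libraries of the sets without Sall4.

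Trf was the member that answered BMP4 in every set. It went from 8.02 to 27.3 FPKM in JGE, from 6.74 to 20.9 in JGEO, from 2.87 to 19.3 in JGES and from 3.08 to 10.6 in JGESO. It was also the only member that was not higher with Sall4 added to JGE in BMP4+ cells. With BMP4, 9 of 10 members were higher in JGES than in JGE (12.1% of all genes), with a median of 2.17, where Trf differed by −0.48. Without BMP4, 2 were higher (Apob and Apoe; 20.1%) and 1 lower (Trf; 16.9%).

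Rbp4 and Apoa1 were highest where Sall4, Oct4 and BMP4 were all present, and Ttr was high in both sets with Sall4. Rbp4 was at 2.33 and 1.3 FPKM without and with BMP4 in JGE, at 0.479 and 0.532 in JGEO, at 1.15 and 10.6 in JGES and at 7.72 and 48.9 in JGESO. Ttr was at 0.464 and 1.49 in JGE, at 0 and 0.339 in JGEO, at 1.52 and 51.1 in JGES and at 22.5 and 44.6 in JGESO. Ttr was thus higher in JGESO without BMP4 than in any set without Sall4, and its BMP4 difference of 0.96 there fell short of the limit. Apoa1 was at 0.382 and 0.0708 in JGE, at 0.126 and 0.14 in JGEO, at 1.5 and 4.17 in JGES and at 10.2 and 20.7 in JGESO. The BMP4+ JGESO level of Apoa1 was its highest among the bulk libraries, which are in 2 tables.

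Apob went against this order. It was at 0.113 and 0.256 FPKM without and with BMP4 in JGE, at 0.0178 and 0.198 in JGEO, at 4.98 and 6.96 in JGES and at 0.366 and 0.161 in JGESO. It thus stood above 1 FPKM in the JGES pair alone. Adding Oct4 to JGES lowered Apob by the fold limit with and without BMP4 (−2.78 and −2.13). With BMP4, Apoa4 was lower as well (7.41 to 2.78 FPKM), while Apoa1, Rbp4, Apoe and Apoc2 were higher, so that 4 of 10 were higher (14.0%) and 2 lower (24.9%). Without BMP4, 6 were higher (16.8%) and 1 lower (32.7%). Adding Oct4 to JGE left 0 members higher in either medium (7.54% of all genes with BMP4 and 10.2% without), 0 lower with BMP4 (4.29%) and 1 lower without (Rbp4; 11.9%).

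Adding Sall4 to JGEO raised 8 of 10 members with BMP4 (7.77% of all genes; median 1.92) and 7 without (7.48%; median 1.65). Rbp4 (5.03), Ttr (5.09) and Apoa1 (4.25) had the largest differences with BMP4, while Apob (−0.04) and Trf (−0.91) were not counted. Apoc2 was at 2.86 and 29.9 FPKM in JGESO and Gm44805 at 3.61 and 37.8. Apoe went from 363 to 1473 FPKM without BMP4 and from 471 to 2226 with it between JGEO and JGESO. Other cell markers moved with these sets. Visceral endoderm markers summed to 3.46 and 10.3 FPKM without and with BMP4 in JGE, 11 and 17.6 in JGEO, 52.5 and 207 in JGES, and 358 and 489 in JGESO. Macrophage markers summed to 100 and 67.5, 50.6 and 47.7, 12 and 13.2, and 38.3 and 42.0 in the same order, and fibroblast markers to 87 in JGES and 706 in JGESO without BMP4. Their part in the differences was not tested.

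SALL4-WT and SALL4-delN12 alone were compared at days 1, 5, 9 and 11, without BMP4. By the fold limit, 1, 2, 2 and 3 of 10 members were higher with SALL4-delN12 (4.18%, 4.67%, 6.09% and 6.55% of all genes) and 0 lower at each day (5.63%, 5.19%, 5.75% and 6.58%). Apoa1 and Apoa4, the cluster neighbours, carried this difference from day 5 on. Apoa1 was at 0.343, 11.6, 14.9 and 11.8 FPKM at days 1, 5, 9 and 11 with SALL4-delN12, and at 0.065, 0.676, 0 and 0.175 with SALL4-WT. Apoa4 was at 0, 3.5, 2.37 and 1.96 with SALL4-delN12 and at 0, 0, 0 and 0.0691 with SALL4-WT. From day 5 on, every library with SALL4-delN12 was above every library with SALL4-WT for both genes. Rbp4 joined at day 11 (0.577 and 5.13 FPKM), and Trf was past the limit at day 1 only (0.964 and 3.34).

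The remaining members rose or stayed alike in both forms. Apoe went from 149 to 1863 FPKM with SALL4-WT and from 96.4 to 1870 with SALL4-delN12 between days 1 and 11, and Trf from 0.964 to 30.3 and from 3.34 to 26.6. Their day 11 differences were 0.00 and −0.18. Ttr reached 1.65 and 2.68 FPKM at day 11, and Afp, Apob, Apom and Apoc2 stayed under 1 FPKM in all 8 libraries. At these low levels Afp was higher with SALL4-delN12 at each day, at 0.65, 0.34, 0.344 and 0.676 FPKM against 0.0616, 0, 0.0252 and 0.166. The visceral endoderm markers summed to 7.17 FPKM with SALL4-WT and 173 with SALL4-delN12 at day 11. Of 12 regulators, 6 were higher at day 11, among them Gata4 (1.51 to 29.3), Sox17 (0.224 to 16.2), Foxa2 (0.462 to 7.68) and Hnf4a (0.0122 to 2.02). Of 12 lipoprotein assembly genes, 1 was higher (Pla2g12b, 0.0809 to 3.13) and 0 lower. Of all genes, 6.55% were higher and 6.58% lower at day 11.

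Macrophage markers also moved with the SALL4 form. They summed to 155, 52.1, 37.4 and 36.4 FPKM at days 1, 5, 9 and 11 with SALL4-WT and to 238, 270, 262 and 534 with SALL4-delN12, and C1qa was at 3.88 and 116 at day 11. Their part in the member differences was not tested. Hepatocyte markers summed to 15.6 and 13.6 FPKM at day 11.

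ATAC-seq peaks, which mark open chromatin, lay within 2 kb of the start site of 3 to 5 members in each of the 9 libraries. Apoa1, Apob and Apoe had one in all 9. The member counts were 4 in MEF (66.2% of all genes had a peak), 4, 5, 4 and 3 with SALL4-WT at days 1, 5, 9 and 11 (60.0%, 64.4%, 63.7% and 64.0%), and 3, 3, 3 and 5 with SALL4-delN12 (57.9%, 59.8%, 61.4% and 61.9%), in each library a smaller share of the 10 than of all genes. The Apoa1 peak of MEF (chr9:46229891-46230276) had its centre 1504 bases after the start, inside the gene, and those of the other libraries overlapped it. Its score, which rises as the p-value falls, was 701.39 in MEF, at most 409.12 with SALL4-WT and at most 285.63 with SALL4-delN12. In RNA, Apoa1 was listed at 0 FPKM in the day 0 library of the JGES course, a different sample from the MEF of ATAC-seq.

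Over the first base itself, a subset looked at after the peaks had been seen, a peak was found for Apoe alone among the members. Apoe had it at days 5, 9 and 11 with SALL4-WT (scores 249.88, 137 and 108.3) and with SALL4-delN12 (125.58, 174.7 and 101.98), where 50.4%, 49.3% and 50.8% and 45.1%, 47.7% and 48.0% of all genes had one. It had none in MEF or at day 1 with either form, where 52.1%, 42.2% and 43.9% of all genes had one. The days with a peak in the Apoe promoter printed above were the days on which Apoe stood at 625 FPKM or more, against 149 or less at day 1.

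H3K27ac, a histone mark of active promoters and enhancers, and SALL4 itself were mapped by Cut&Tag at day 6. With SALL4-delN12, 4 members had an H3K27ac peak within 2 kb (Apoa1, Apom, Rbp4 and Apoe; 56.8% of all genes) and with SALL4-WT 0 did (47.6%). The lists held 45599 and 19841 H3K27ac peaks, so the counts follow lists of unequal size. SALL4 peaks lay near Apoa1 and Apoe with SALL4-WT (2 of 10; 51.5%) and near 0 members with SALL4-delN12 (38.5%), from lists of 69475 and 67310 peaks. Over the first base of Apoe stood both an H3K27ac peak with SALL4-delN12 (score 92.19) and a SALL4 peak with SALL4-WT (60.19).

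Single cells showed which cells at day 7 held the transcripts. In the BMP4+ sample, 7 of 10 members were more than 2-fold higher in ParE cells than in the other cells (9.53% of all genes) and 1, Trf, was lower (21.1%). Apob, at a ratio of 2.23 (2.02 to 2.46), is among the 7, and gave 1.44 where the cells were chosen by primitive endoderm markers instead. ParE cells were 2372 of 11335 cells (20.9%) with BMP4 and 142 of 8685 (1.64%) without. Levels are summed UMIs in CPM, with exact Poisson intervals at 95% that cover counting error only.

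**Figure D3:**
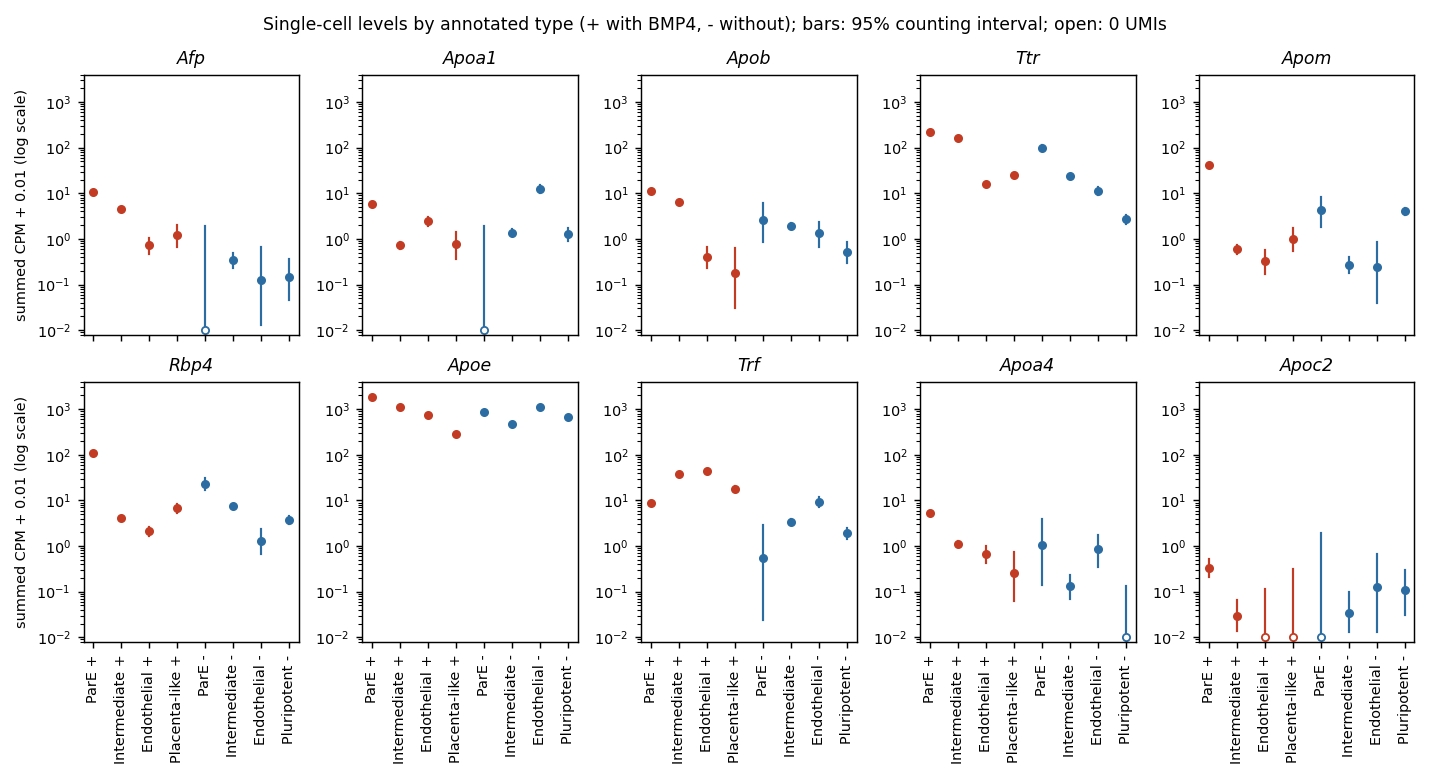
Summed CPM (plus 0.01, log axis) of each gene by annotated type in the BMP4+ (red) and BMP4− (blue) samples, with exact 95% counting intervals; open points had 0 UMIs. Apom and Rbp4 stood at 42.3 and 107 CPM in BMP4+ ParE cells and at no more than 6.82 CPM in the other types of that sample.

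Apom and Rbp4 were the members most confined to ParE cells. Apom was at 42.3 CPM (40.7 to 44.0) in them and at 0.578, 0.315 and 1.01 in intermediate, endothelial and placenta-like cells, and ParE cells held 95.7% of its UMIs in the sample. The ratio of ParE to all other cells was 75.9 (63.0 to 92.2). Rbp4 was at 107 CPM (104 to 110) against 4.04, 2.12 and 6.82, with 89.1% of its UMIs in ParE cells and a ratio of 27.6 (25.7 to 29.8). Apoc2, counted among the 7 although below 1 CPM, had 20 of its 23 UMIs in ParE cells. It was barely seen in single cells, with 0 UMIs in endothelial and placenta-like cells and 0.326 CPM in ParE cells.

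Apoa1 and Apoa4, the cluster pair, had like levels and like ratios. Apoa1 was at 5.68 CPM (5.10 to 6.31) in ParE cells and 5.65 times higher there (4.75 to 6.74), and Apoa4 at 5.37 (4.81 to 5.98) and 5.45 times (4.56 to 6.52). Outside ParE cells, the highest level of Apoa1 was in endothelial cells (2.4 CPM, 1.92 to 2.98, where the 3 highest cells held 22, 16 and 12 of 84 UMIs) and Apoa4 in intermediate cells (1.11, 0.955 to 1.29). Their neighbour Apoc3 was at 1.73 against 0.0289 CPM and Apoa5 at 1.56 against 0.0722.

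UMIs of Ttr, Apob, Afp and Apoe were split between ParE and intermediate cells. Ttr was at 220 CPM (216 to 224) in ParE and 164 (162 to 166) in intermediate cells, and at 15.8 and 24.7 in endothelial and placenta-like cells, where 1 cell held 132 of 553 and 1 cell 202 of 293 UMIs. Intermediate cells held 64.8% of the Ttr UMIs, but 84.0% of these lay in 3.35% of them, so the level is not that of a typical cell. Apob was at 11.1 and 6.32 CPM and Afp at 10.9 and 4.42 in the same types, with 59.4% and 50.1% of their UMIs in intermediate cells, of which 41 cells held 70.5% for Apob and 14 cells 59.6% for Afp. Apoe was at 1831, 1088, 738 and 279 CPM in ParE, intermediate, endothelial and placenta-like cells, a ratio of 1.86 (1.85 to 1.88) to the other cells. Apoc1 and Apoc4, the neighbours of Apoe, ran the other way, at 15.0 and 10.8 CPM in ParE cells and 54.8 and 47.7 in the others.

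Trf alone was lower in ParE cells, at 8.74 CPM (8.02 to 9.51) against 38.0 in intermediate and 44.1 in endothelial cells. ParE cells held 6.38% of its UMIs, and the ratio was 0.231 (0.211 to 0.252). The bulk Trf difference with BMP4 thus stood beside single-cell levels that were lowest in ParE cells.

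Around the members, ParE cells of the BMP4+ sample had 5 of 12 lipoprotein assembly genes more than 2-fold higher and 0 lower. Of all genes, 9.53% were higher and 21.1% lower in these cells. Fabp1, a fatty acid-binding protein of liver and gut, was at 10.2 against 0.101 CPM, Mttp at 37.0 against 9.24, and the ratios of Pla2g12b, Soat2 and Dgat2 were 46.6, 24.0 and 3.36. Of 12 receptor and uptake genes 5 were higher, among them Cubn (48.1-fold), Dab2 (38.7), Lrp2 (22.7) and Amn (12), and 5 lower. The lower group held Lrp1, a receptor for apolipoprotein E (0.135), Stra6 (0.372) and the transferrin receptor gene Tfrc (0.422). Cubn, Lrp2, Amn and Dab2 belong to the uptake machinery of visceral endoderm, and Cubn, Lrp2 and Amn are also in the marker list above. Of 12 regulators 8 were higher, among them Gata4 (49.5), Hnf4a (30.1), Foxa3 (23.4) and Foxa2 (20.8), and 1 was lower (Zbtb20, 0.435). Of 19 other secreted genes measured, 7 were higher, including Spink1 (56.6) and F2 (54.8), and 4 lower (Cp 0.151, Clu 0.175, Apoc1 0.273, Igf2 0.439). Alb had 0 UMIs in ParE cells.

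BMP4+ ParE cells were also compared with the 142 BMP4− ParE cells. In that comparison 9 of 10 members were more than 2-fold higher with BMP4, where 25.2% of all genes were. The median gene was also higher, by 0.43 on the log2 scale, and relative to it Ttr (1.65) and Apoe (1.54) no longer pass 2. Without that scaling, Ttr went from 98.9 to 220 CPM, a ratio of 2.22 (1.92 to 2.58), Rbp4 from 22.7 to 107 (4.70, 3.49 to 6.51), Apom from 4.23 to 42.3 (10.0, 5.07 to 23.2) and Apob from 2.65 to 11.1 (4.19, 1.79 to 12.9). The BMP4− values rest on 187, 43, 8 and 5 UMIs, and the 5 of Apob came from 1 cell, so its ratio rests on that cell. A single BMP4+ ParE cell held 121 of the 681 Apob UMIs. Afp and Apoa1 had 0 UMIs in BMP4− ParE cells and were at least 6.87-fold and at least 3.58-fold higher with BMP4, taken against the limit of 3 counts over that group, and the exact 95% lower limits of these ratios are 5.57 and 2.9. Trf and Apoa4 rest on 1 and 2 UMIs without BMP4. Within the BMP4− sample, 4 members were more than 2-fold higher in ParE cells than in the other cells (11% of all genes), namely Ttr (5.46, 4.68 to 6.34), Rbp4 (3.66), Apom (3.59) and Apoa4 (7.55, on 2 UMIs), and 1 was lower (Trf, on 1 UMI; 14.5%).

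Over all cells of each sample, 8 of 10 members were more than 2-fold higher with BMP4 (29.5% of all genes) and 0 lower (8.7%). The ratios were 19.7 for Afp (14.0 to 28.7), 12.9 for Apoa4, 9.14 for Trf, 8.23 for Apom, 7.83 for Ttr (7.52 to 8.17), 4.24 for Rbp4, 4.13 for Apob and 2.04 for Apoe. The median gene was itself higher with BMP4, by 0.47 on the log2 scale, and relative to it Apoe gave 1.47 and no longer passed 2. Apoa1 gave 1.00 (0.861 to 1.17) and Apoc2 1.75 (0.694 to 5.26), where bulk RNA had both past the limit.

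The type-by-type values show where Apoa1 lay without BMP4. In endothelial cells it was at 12.4 CPM (10.1 to 15.0) without and 2.4 (1.92 to 2.98) with BMP4, a ratio of 0.195 (0.144 to 0.262). Intermediate cells held 44.7% of the Apoa1 UMIs of the BMP4− sample (114 UMIs in 113 cells) and pluripotent cells 14.5%. The 507 endothelial cells, 5.84% of that sample, held 40.8% of the UMIs, but few of these cells carried the level. Only 23 of the 507 had an Apoa1 UMI, the 2 highest held 35 and 22 of the 104 UMIs, and with BMP4 21 of 1453 cells had one, so the ratio rests on few cells and its interval does not cover that. In endothelial cells 2 members were lower (Apoa1 and Apob; 7.83% of all genes) and 2 higher with BMP4 (Trf 4.76 and Afp 6.03, the latter on 25 and 1 UMIs and below 1 CPM in both samples; 24.4%). Macrophage markers summed to 147 CPM in BMP4+ and 102 in BMP4− endothelial cells, the highest of any type, and their part was not tested. In intermediate cells 7 members were higher with BMP4 (29.1%), led by Afp (13.1), Trf (11.1), Apoa4 (9.25) and Ttr (6.76). Apom is among the 7 at 0.578 against 0.265 CPM, below the 1 CPM that the share of all genes requires. The median gene was higher too, by 0.41 on the log2 scale. Apom and Apoe, at ratios of 2.18 and 2.27, no longer pass 2 relative to it. In the same cells Rbp4 and Apoa1 gave 0.533 and 0.526. Apom without BMP4 lay mainly in pluripotent cells, which held 78.8% of its UMIs at 4.01 CPM (3.32 to 4.80).

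Shares of cells with a UMI were taken after thinning each cell to 4000 UMIs, since the samples differ in depth. In BMP4+ ParE cells the shares were 91.8% for Apoe, 34.6% for Ttr (32.7 to 36.5, exact binomial), 26.2% for Rbp4 (24.4 to 28.0), 12.8% for Apom, and 1.64 to 2.95% for Afp, Trf, Apob, Apoa4 and Apoa1. Apoc2 was at 0.0843%. Unthinned shares were 99.2% for Apoe, 63.7% for Ttr, 54.9% for Rbp4 and 37.8% for Apom. Endothelial cells of the same sample, of a type not known for these carriers, gave 1.86% for Ttr, 0.688% for Rbp4 and 0.206% for Apom at a median of 21763 UMIs before thinning, against 23772 in ParE cells, and in them these low shares cannot be told apart from free RNA. Trf differed again, with 12.9% in endothelial, 7.44% in intermediate and 2.78% in ParE cells. BMP4− ParE cells gave 19.0% for Ttr, 8.45% for Rbp4 and 2.82% for Apom.

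Single ParE cells rarely showed many of these genes at once at this depth. Apart from Apoe, 44.9% of BMP4+ ParE cells had a UMI of 0 members, 33.7% of 1, 14.9% of 2 and 6.49% (154 cells) of 3 or more, with 6 the most in any cell. Of intermediate cells 79.4% had 0 and 0.112% (8 cells) had 3 or more. Over the 2372 ParE cells, which share 1 library and differ in depth, the median correlation of log levels over 45 pairs of members was 0.18. It was highest for Ttr with Apoe (0.62), Ttr with Apom (0.56) and Apom with Apoe (0.54), and no pair with Trf was above 0.17. In intermediate cells the median was 0.0 and the highest 0.24.

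ParE cells were then split by their thinned Ttr count, a split chosen after the values had been seen and given without a test. The classes of 0, 1 or 2, and 3 or more Ttr UMIs held 1552, 576 and 244 cells, at medians of 23690, 24180 and 23530 UMIs per cell, so depth differed little between them. Apob was at 2.25, 9.73 and 72.1 CPM and Apoa1 at 2.1, 4.14 and 32.9. Of all these ParE cells only 191 had an Apob UMI and 163 an Apoa1 UMI, and 1 cell held 121 of the 681 Apob UMIs. The levels of these 2 genes thus rest on few cells, which counting intervals do not cover. Apom (22.1, 55.5 and 142), Apoa4 (3.04, 6.31 and 18.2), Rbp4 (79.5, 126 and 238) and Apoe (1208, 2327 and 4670) followed the same order, as did Afp (7.91, 10.8 and 30.8), while Trf did not (8.51, 6.64 and 15.5). Genes of uptake and assembly ran with the members, with Cubn at 71.4, 138 and 258, Amn at 148, 271 and 440, Mttp at 28.0, 44.8 and 76.2 and Fabp1 at 6.04, 12.8 and 31.4. Among basement membrane genes, Sparc was near level (2254, 2235 and 2153), and Col4a1 (1227, 1117 and 944) and Lama1 (231, 197 and 138) fell. Nid1 went up and then down (13.7, 18.2 and 10.7). Among regulators, Gata4 (79.1, 79.5 and 69.7) was near level and Sox17 (274, 248 and 225) fell. Hnf4a (9.61, 14.8 and 17.9) and Foxa3 (11.4, 14.2 and 19.9) rose.

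**Figure D4:**
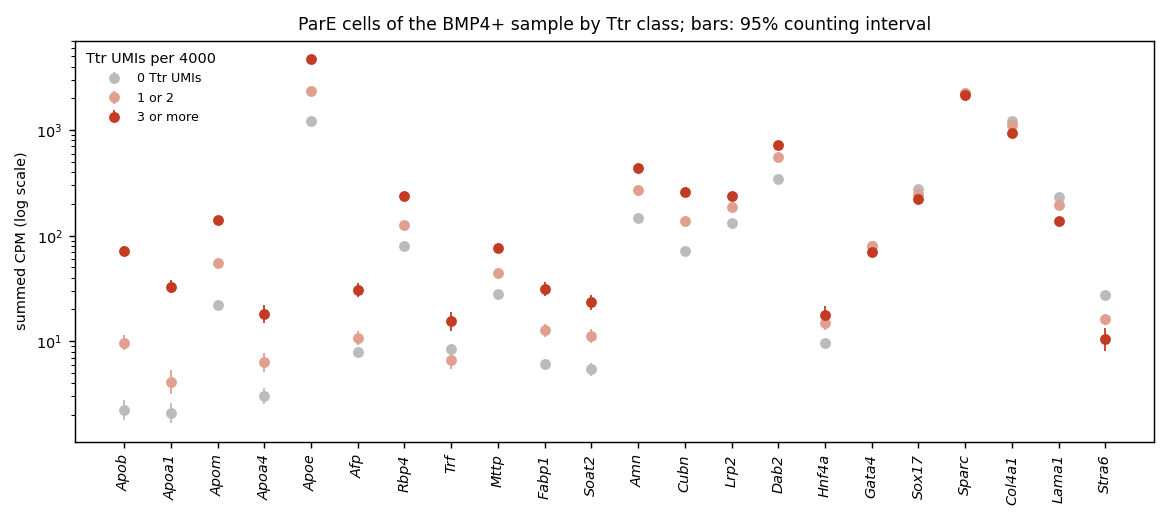
Summed CPM (log axis) with exact 95% counting intervals in BMP4+ ParE cells with 0, 1 or 2, and 3 or more Ttr UMIs after thinning to 4000. Apob, seen in few cells, went from 2.25 to 72.1 CPM across the classes and Lama1 from 231 to 138.

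In intermediate cells most Ttr, Afp and Apob UMIs came from few cells. The tenth of cells with the most UMIs of a gene held 96.3% of Ttr UMIs in BMP4+ intermediate cells, against 62.0% in ParE cells. For Trf the order was the other way, with 41.8% of its UMIs in the top 1% of intermediate cells and 48.0% in that of ParE cells. Trf had 6121 UMIs in the 7125 intermediate cells and 537 in the 2372 ParE cells. Such shares also rise where a gene has few UMIs per cell, so they are not alike in scale between genes or types. Apoc2, with 20 UMIs in ParE cells, had 100% in the top 1%. The top 1% of intermediate cells held 58.4% of Ttr, 75.3% of Afp and 80.3% of Apob UMIs, and single cells reached 946 Ttr and 118 Afp UMIs. One cell gave 47 of the 179 Apoa4 UMIs. In ParE cells the top 1% held 17.8% of Ttr, 46.3% of Afp, 47.9% of Apoa1 and 57.3% of Apob UMIs.

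**Figure D5:**
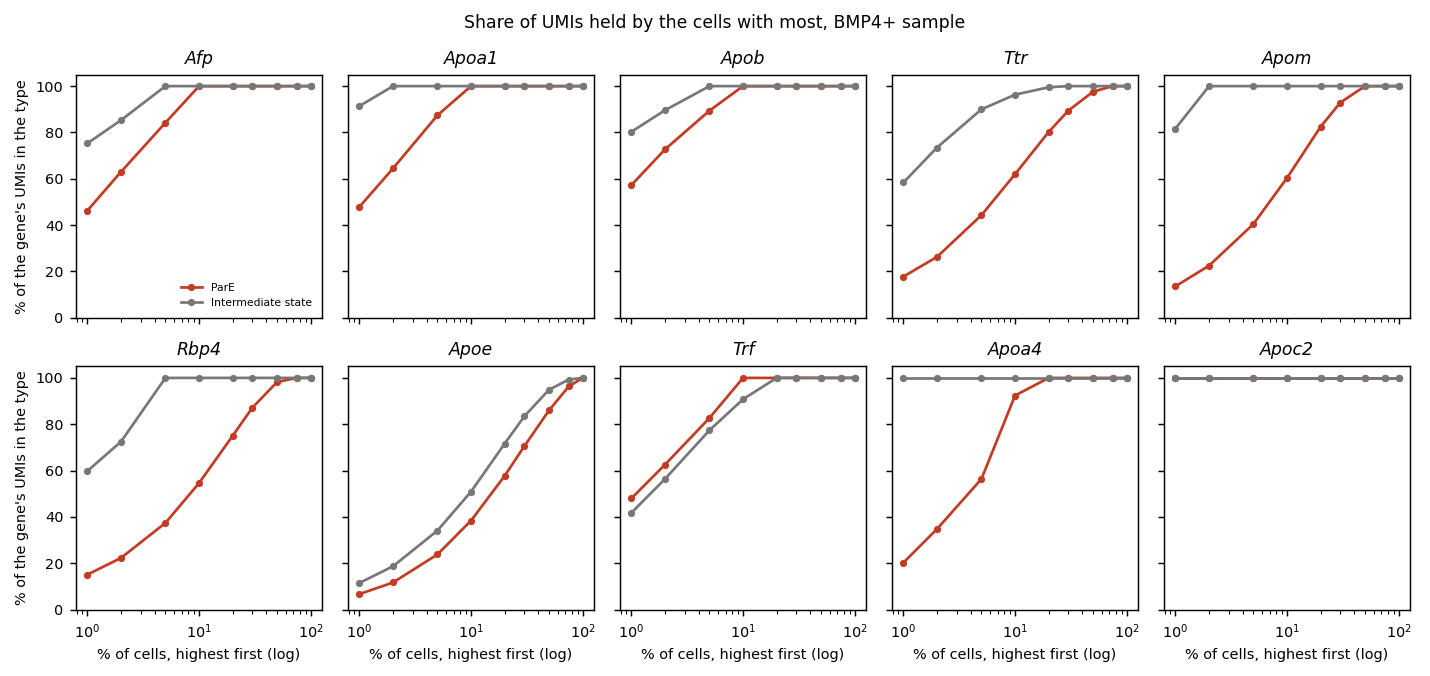
Percent of a gene's UMIs (vertical axis) held by the given percent of cells, highest cells first (log axis), in ParE (red) and intermediate (grey) cells of the BMP4+ sample. The top 1% of intermediate cells held 58.4% of Ttr UMIs and the top 1% of ParE cells 17.8%.

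The intermediate cells with the most UMIs of 3 members, sets chosen after seeing the values, overlapped in few cells. Of 7125 cells, 14 had at least 5 Afp UMIs (0.196% of cells with 59.6% of its UMIs), 41 had at least 5 Apob UMIs (0.575% with 70.5%) and 239 had at least 20 Ttr UMIs (3.35% with 84.0%). The Afp and Apob sets shared 1 cell, Afp and Ttr 3, and Apob and Ttr 2. The 3 cells are of 14 in the Afp set, a larger share than the 3.35% of all intermediate cells that the Ttr set makes up. The Afp set had Trf at 733 CPM against 35.9 in the remaining intermediate cells, Rbp4 at 72.5 against 3.82 and the fibrinogen gene Fgb at 491 against 0.324, the last in 5 of 14 cells. Alb gave 2 UMIs in 1 of these cells. Gata4, Apom and Apoa4 gave 0 in the set, where 1 UMI makes 2.01 CPM. They were at 1.55, 0.579 and 1.12 CPM in the remaining intermediate cells, so these zeros do not tell the set apart. Ccl2 (445 against 41.4 CPM), Cxcl5 (151 against 9.22) and Cxcl1 (147 against 11.3) were also among the genes highest in the Afp set relative to the rest. The Apob set had Itih4, a plasma protein gene, at 48.1 against 3.75 CPM. Cxcl3 (36.3 against 0.576) and Fgfbp1 (36.3 against 1.35), each seen in 2 cells of that set, were also among its highest genes. Fgb was level in it, at 1.69 against 1.84 CPM, and Hp had 0 UMIs against 4.54 CPM in the rest. Apoa1, Apoa4, Apom, Fga and Fgg also had 0 UMIs, where 1 UMI makes 0.844 CPM. They were at 1.12 CPM or less in the rest, so their zeros do not tell the set apart. The Ttr set had Chga, a protein of secretory granules, at 271 against 10.3 CPM and the natriuretic peptide gene Nppa at 247 against 22.7 (47 cells), while Apoe was lower at 505 against 1113. Median UMIs per cell were 40732, 29077 and 25995 in the Afp, Apob and Ttr sets against 19594 over all intermediate cells, so these cells were deeper than their type, and the part of depth or of doublets, which were not removed here, was not tested.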

How the data were processed

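The members and gene lists were chosen with earlier results of these data known. All 10 members are described, together with genome neighbours, lists of other secreted, lipoprotein assembly, receptor and regulator genes, cell type markers, and the 5 genes with the highest Pearson correlation to the members' mean profile among genes with at least 5 FPKM. In bulk RNA-seq the authors trimmed reads (Trim Galore 0.6.4), mapped them to mm10 (HISAT2 2.2.1) and deposited FPKM values from StringTie 2.2.1. For single cells the authors deposited UMI counts per gene and cell from STARsolo, with their cell types, and 10749 columns of other work were not used. No doublets were removed here. A gene of the receptor list is counted but not reported here by name. Peaks of ATAC-seq and Cut&Tag were deposited as called by MACS 1.4.2, with a score per peak, and the submitters' notes also name Bowtie2 2.4.5 and SAMtools 1.16.1. Cut&Tag replicates had been merged before peaks were called.

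Bulk libraries were compared within 1 table as differences of log2(FPKM+1). Single cells were summed per sample and type, scaled to CPM and compared by ratio. Shares of all genes cover those with at least 1 FPKM or 1 CPM in either group, while members were counted at any level. A count of 0 stood at 3 counts, and no ratio was given where both groups were at 3 or fewer. Differences of 1 (log2) or ratios of 2 counted as higher or lower. Intervals are exact (Poisson or Clopper-Pearson, 95%) and cover counting error only, and the depth behind FPKM values and peaks is unknown. Cells were thinned to 4000 UMIs with 0 cells left out. Every condition had 1 sample, so no test was made. Alternatives were a pseudocount of 0.1, a 3-fold limit, filters on low levels, other depths, mean levels over cells, cells chosen by at least 3 primitive endoderm markers, cells without the 6% with most UMIs, 500 bases around the start, scores of at least 100 and, chosen after seeing the data, ratios relative to the median gene. Scripts (Python 3.11.15, pandas 2.3.3, SciPy 1.17.1) were tested on simulated data.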

Additional observations from a re-analysis of the deposited data

Results flagged for a closer look

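Some members moved in opposite directions under the same contrast, with 1 library in each group, so none of these differences was tested. With BMP4, the single-cell ratio of Apoa1 was 0.195 in endothelial cells and at least 3.58 in ParE cells, where the BMP4− cells had 0 UMIs. Apob gave 0.307 in endothelial cells (14 UMIs with and 11 without BMP4), 3.31 in intermediate cells and 4.19 in ParE cells, where the 5 UMIs without BMP4 came from 1 cell. The 2 highest of the 507 BMP4− endothelial cells held 35 and 22 of their 104 Apoa1 UMIs.

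In the JGES time course, the BMP4 difference of Apoa1 on the log2(FPKM+1) scale was −1.79 at day 3 and 1.05 at day 7. Apoa4 gave −1.12 and −2.25 at days 1 and 3 but 3.1 at day 7. In each of these 5 comparisons except that of Apoa1 at day 7, the lower library was below 1 FPKM.

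Adding Oct4 to JGES moved Apoa4 by −1.15 with BMP4 and by 2.59 without it, where it was listed at 0 in JGES. Adding Oct4 moved Rbp4 by −1.17 in JGE cells without BMP4, and by 2.02 without and 2.11 with BMP4 in JGES cells.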

How the results depend on the processing

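No paired analysis, such as one by day or by factor set, was made, and each condition has 1 library. Among checks of the main results under other settings, 208 were labelled the same and 44 moved. A count of members has no direction, so a check on it cannot show whether a result reversed. A pseudocount of 0.1, which gives more weight to genes near 0, moved many bulk counts of members. For BMP4 in JGES it gave 2 higher and 2 lower at day 1 and 2 and 2 at day 5. Against day 0 it gave 1 lower at day 1 and 7 higher at day 5 without BMP4, and 5, 7 and 7 higher at days 1, 3 and 5 with it. With BMP4 it gave 2 higher and 2 lower in JGE and 5 higher in JGEO. For Sall4 added to JGE without BMP4 it gave 6 higher and 3 lower, and for Sall4 added to JGEO without BMP4 1 lower. For Oct4 added to JGE it gave 4 lower without BMP4, and 1 higher and 2 lower with it, and for Oct4 added to JGES 2 lower without BMP4. SALL4-delN12 had 4 higher and 1 lower at days 1 and 5. The day 7 counts in JGES stayed within the limit of 1.5 times under this setting.

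In intermediate cells, 1 member was lower with BMP4 without the 6% of cells with most UMIs, 1 by mean levels over cells and 2 relative to the median of all genes, a setting chosen after seeing the data. With cells chosen by primitive endoderm markers, Apob gave 1.44 against the other cells, no longer past 2. Within 500 bases, members with a peak were 1 in MEF, 1, 3, 2 and 1 with SALL4-WT and 1 each day with SALL4-delN12, 2 for H3K27ac (SALL4-delN12) and 1 for SALL4 (SALL4-WT). At scores of at least 100 they were 2 in MEF, 2, 3 and 2 with SALL4-WT at days 1, 5 and 9, and 3 with SALL4-delN12 at day 11. They were 1 for H3K27ac (Apom, SALL4-delN12) and 0 for SALL4.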
